A study of Mus musculus with 10 samples.

Results

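Early T cells were followed from the double-negative 1 (DN1) stage to the DN2b stage by RNA-seq of mouse cultures, and the genes described here are those that moved the same way over that span in both label years. The rule took the 2 DN2b libraries against the 2 DN1 libraries by their labels, left out the 38 genes that the study lists as high-dose Notch-dependent, and kept a gene only when DN2b minus DN1 had the same sign in the libraries of the earlier and of the later label year. It left 7119 of 12221 tested genes, of which 3338 were higher in DN2b and 3781 were lower. Of the other tested genes, 5066 had opposite signs or no difference in a year and 36 were on the high-dose list.

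All cells descended from LSK cells (lineage-negative, SCA-1+ KIT+ marrow progenitors) of C57BL/6J mice, grown with cytokines for blood progenitors on the Notch ligand Delta1ext-IgG immobilized at 5 µg/mL. DN1 cells (KIT++ CD44+ CD25-) were sorted from cultures without interleukin-7. DN2a (KIT++ CD44+ CD25+) and DN2b (KIT+ CD44lo CD25+) cells were sorted from cultures that received 100 ng/mL interleukin-7 on day 14, so stage and interleukin-7 cannot be told apart. The titles give DN1 an earlier date than DN2b in each year, so stage and title date cannot be told apart either. The 4 control libraries came from LSK cells kept on human IgG without Notch ligand and harvested on day 14. The study describes replicates as independent LSK isolates, but the labels give only a date in each DN title (1 library of each stage in an earlier and 1 in the following year, called earlier and later here, with values given in that order), and p-values measure the spread between these libraries.

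T cell progenitors enter the thymus with some other fates, myeloid among them, still open and with genes of stem and progenitor cells still expressed. Notch signals, with the transcription factors TCF1 and GATA3, then switch on the genes of the T cell receptor complex while the progenitor and myeloid regulators, such as PU.1, are shut down. In the textbook account DN1 cells retain other fates, DN2a cells have begun the T program and DN2b cells are committed to it.

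In the DN1 and DN2b libraries 12354635 to 22635537 reads were counted on genes, and a count of 3 reads, used as the detection floor, was worth 0.111 to 0.239 CPM (counts scaled to the TMM-adjusted library size). The earlier DN1 library stood apart: its log2(CPM + 1) correlation with the later DN1 library was 0.932, whereas the later library reached 0.96 and 0.963 with the DN2a libraries. It also carried more RNA of the neutrophil, mast cell and erythroid lists, as given beside the results, but not of the macrophage and dendritic cell list. In bulk RNA, fewer cells of a type and less RNA per cell cannot be told apart.

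The sort markers were checked against the labels. Cd44, the hyaluronan receptor used in the sort, stood at 116 and 159 CPM in DN1 and 13.5 and 10.9 CPM in DN2b (log2FC = -3.50 ± 0.35 SE, edgeR adjusted p = 0.0034). Il2ra, the interleukin-2 receptor alpha chain (CD25) and itself a high-dose gene, stood at 23.2 and 18.9 and 2177 and 1729 CPM (log2FC = 6.53 ± 0.76 SE, edgeR adjusted p = 0.00523). Kit, the stem cell factor receptor, stood at 368 and 319 and 130.4 and 176 CPM and did not pass the test (log2FC = -1.17 ± 0.63 SE, edgeR adjusted p = 0.477). The 3 markers were ordered between the stages as the sort gates would place them, and in each the groups did not overlap.

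Across all tested genes 124 were called higher in DN2b (1.01% of those tested) and 109 lower (0.892%), by edgeR's quasi-likelihood test at an adjusted p under 0.05. Of these, 102 of the higher and 109 of the lower were members. The remaining 22 were high-dose genes, and no called gene went in opposite directions in the 2 years. The DN1 and DN2b libraries did not overlap in the 211 called members, nor in 5181 of all 7119 members, which the same-sign rule favors. At an unadjusted p under 0.05, 664 genes were higher and 1030 were lower. The called rises included genes of the T cell receptor complex, Ctla4, Gimap and Khdc1 genes and 3 scavenger receptors, and the called falls included granule, mast cell, cytokine receptor and progenitor genes.

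The rising calls were of similar size in both years, with a median DN2b minus DN1 difference of 2.67 in the earlier and 2.79 in the later year on the log2(CPM + 1) scale. The falling calls were larger in the earlier year, with medians of -2.97 and -2.21, and the earlier fall was the larger in 82 of 109. The earlier DN1 library exceeded the later over 4 times in 25 of the 109 falling calls, in 1 of the 102 rising calls and in 745 of all 12221 tested genes. When that library was left out, 22 genes were called higher (0.18%) and 34 lower (0.278%), and 15 of the 102 and 31 of the 109 called members were still called. All 211 kept their direction, which was largely fixed beforehand, as the DN1 and DN2b libraries did not overlap in any of them. Of the 65 called genes among those named by rule, 9 were called with each of the 10 libraries left out in turn, 18 in at most 3 of these cases and Khdc1b in none. Without single DN libraries 16 to 46 of the 65 were called, with the lowest count without the later DN2b library, and without single IgG libraries 49 to 58.

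**Figure D1:**
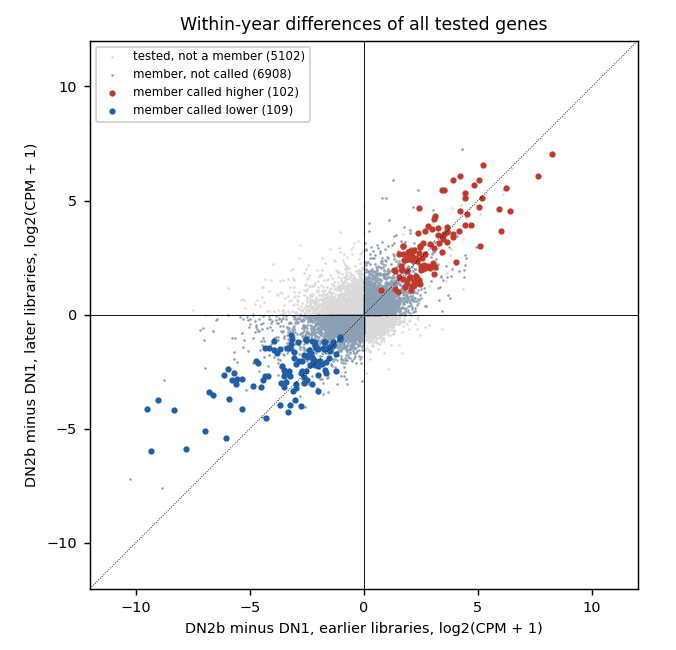
Each point is 1 of 12221 tested genes, with DN2b minus DN1 on the log2(CPM + 1) scale for the earlier libraries on the x axis and the later ones on the y axis. The 102 members called higher lie on both sides of the dotted line of equal change, and 82 of the 109 members called lower lie on the side where the earlier fall was larger.

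The DN2a libraries did not enter the same-sign rule, although they shared the fit and the filter on low values behind the calls. The DN2a mean fell between DN1 and DN2b in 98 of the 102 rising calls (96.08%) and in 96 of the 109 falling calls (88.07%). The rest of the calls lay past DN2b, and none lay beyond DN1. The share was 60.64% of all rising and 64.56% of all falling members. The calls had a median log2FC of 3.50 and -3.60 and these members 0.55 and -0.65, and a wider span holds the DN2a mean more easily. At DN2a the median rising call had covered 64.42% of its log2 span and the median falling call 77.86%, against 74.12% for all members. The IgG control mean was above the DN1 mean in 57 of the 102 rising calls (55.88%), against 45.78% of all rising members. It was above in 81 of the 109 falling calls (74.31%), against 54.54% of all falling members.

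Of the 12 largest called rises, all but Cd3d belonged to genes with at most 0.449 CPM in either DN1 library. 5830411N06Rik (chr7:140247284-140300736, mm10) and its neighbor Cd163l1 (chr7:140218267-140231145) encode scavenger receptors with cysteine-rich domains. 5830411N06Rik had no read in either DN1 library and 35.9 and 93.03 CPM in DN2b, at least 494-fold higher when each DN1 library is set to the floor of 3 counts (edgeR adjusted p = 0.00407). Cd163l1 stood at 0.0742 and 0.349 CPM in DN1 and 34.04 and 80.8 CPM in DN2b (log2FC = 8.12 ± 0.88 SE, edgeR adjusted p = 0.0034). Both stood at 4.01 to 6.09 CPM in DN2a and were called under every one of 18 other settings. The proteins are related, and reads not aligned uniquely were left out of the gene counts, so the level of each is uncertain. Another gene of this kind, E030002O03Rik (named after its values were seen), stood at 4.23 and 4.99 CPM in DN1 and 28.4 and 22.2 CPM in DN2b (log2FC = 2.46 ± 0.47 SE, edgeR adjusted p = 0.0354) and was not called without the earlier DN1 library (edgeR adjusted p = 0.209).

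Next came the Khdc1 genes, KH-domain genes that are neighbors on chromosome 1. Khdc1a (chr1:21349641-21352200) stood at 0.111 and 0.399 CPM in DN1 and 339 and 184 CPM in DN2b (log2FC = 10.05 ± 0.88 SE, edgeR adjusted p = 0.00678). Khdc1b and Khdc1c had no read in DN1 and reached 7.48 and 2.47 and 5.47 and 5.26 CPM in DN2b, at least 38.1-fold and 41.1-fold higher. All 3 passed the test, all 3 lay between the stages in DN2a, and, as these are related copies, the level of each is uncertain. With each of 10 libraries left out in turn, Khdc1a was called in 9 cases, Khdc1c in 4 and Khdc1b in 0, and none was called without the earlier DN1 library (edgeR adjusted p = 0.0561 for Khdc1a).

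Themis, which tunes T cell receptor signals during thymic selection, had 0 and 1 reads in DN1 and 110 and 226 reads in DN2b (edgeR adjusted p = 0.0128). Cd3d, a chain of the CD3 signaling complex, stood at 0.705 and 7.53 and 335 and 571 CPM (log2FC = 6.80 ± 1.29 SE, edgeR adjusted p = 0.034). C1qtnf1, a secreted C1q and TNF related protein, stood at 0.0742 and 0.249 and 23.5 and 25.2 CPM (log2FC = 7.24 ± 0.64 SE, edgeR adjusted p = 0.00316), and it was called under every one of 18 other settings. The remaining large rises were Ccdc109b, a regulator of the mitochondrial calcium channel, Vat1l, Necab1, a calcium-binding protein of neurons, Psg17, a pregnancy-specific glycoprotein, and the long noncoding RNA 8430426J06Rik. Of these 5, DN1 values reached at most 0.449 CPM and DN2b values ran from 8.48 CPM for 8430426J06Rik to 95.3 CPM for Psg17. Without the earlier DN1 library Vat1l was still called (edgeR adjusted p = 0.0284), whereas Cd3d, Themis, Ccdc109b, Necab1, Psg17 and 8430426J06Rik were not, with an edgeR adjusted p of 0.131, 0.0735, 0.152, 0.237, 0.162 and 0.0728. Ccdc109b was the exception in the IgG control, where it stood at 7.84 to 50.2 CPM.

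**Figure D2:**
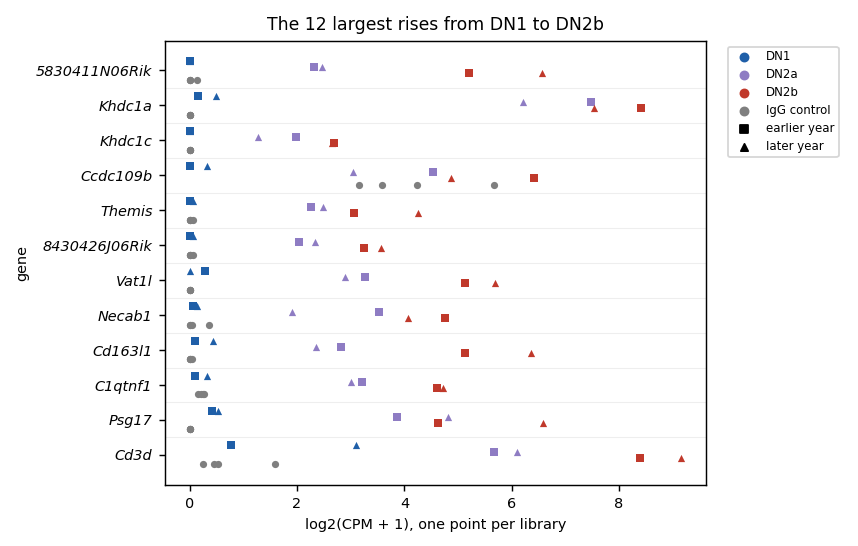
Expression of the 12 members with the largest rises, 1 point per library on a log2(CPM + 1) axis, colored by group and shaped by label year. In every row both DN2b libraries lie to the right of both DN1 libraries, as the rule that chose these genes required. The DN2a libraries also lie to the right of DN1.

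Promoter windows of 250 bases before the RefSeq start (GRCm38.p6) are shown for 2 protein-coding genes of the 12 largest rises and 3 of the 12 largest falls, so that the windows can be read beside the regulators described further on. Capitals mark matches to 7 short motifs searched on both strands: TGGGAA for RBPJ, the Notch effector, TTCNNNGAA for STAT proteins, CTTTGA for the TCF family, TGTGGT for RUNX proteins, AGATAA for the family that includes GATA3, TTGCNNAA for C/EBP proteins and GAGGAAG for PU.1. Matches of different motifs were allowed to overlap. The 2 rising windows, at chr7:140247051-140247300 on the plus strand and chr10:28668110-28668359 on the plus strand, held none of the 7.
5830411N06Rik: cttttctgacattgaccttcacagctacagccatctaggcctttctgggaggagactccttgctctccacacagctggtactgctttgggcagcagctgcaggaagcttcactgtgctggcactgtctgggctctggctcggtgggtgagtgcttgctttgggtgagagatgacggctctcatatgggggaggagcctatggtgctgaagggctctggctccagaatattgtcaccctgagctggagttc
Themis: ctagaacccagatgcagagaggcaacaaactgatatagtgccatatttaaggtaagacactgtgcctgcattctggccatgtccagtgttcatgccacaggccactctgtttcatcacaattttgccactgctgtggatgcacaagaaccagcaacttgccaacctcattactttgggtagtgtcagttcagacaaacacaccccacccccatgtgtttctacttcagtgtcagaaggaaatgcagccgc

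The 3 windows of falling genes lay at chr3:90668821-90669070 on the plus strand for S100a8, chr3:90695722-90695971 on the minus strand for S100a9 and chr19:11640852-11641101 on the minus strand for Ms4a3. S100a8 held GAGGAAG in reverse, starting 171 bases before the start, and Ms4a3 held TGGGAA in reverse, starting 177 bases before it. S100a9 held the C/EBP, RBPJ, RUNX and GATA letters.
S100a8: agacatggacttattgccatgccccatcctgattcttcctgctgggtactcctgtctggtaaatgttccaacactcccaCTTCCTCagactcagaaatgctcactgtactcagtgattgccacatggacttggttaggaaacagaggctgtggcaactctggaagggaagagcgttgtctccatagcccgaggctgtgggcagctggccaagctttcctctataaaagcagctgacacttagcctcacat
S100a9: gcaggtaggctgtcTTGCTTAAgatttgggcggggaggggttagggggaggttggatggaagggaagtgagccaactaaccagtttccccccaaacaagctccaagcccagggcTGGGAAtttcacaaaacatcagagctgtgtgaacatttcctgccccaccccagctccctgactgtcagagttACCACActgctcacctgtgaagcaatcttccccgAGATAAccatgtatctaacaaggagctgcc
Ms4a3: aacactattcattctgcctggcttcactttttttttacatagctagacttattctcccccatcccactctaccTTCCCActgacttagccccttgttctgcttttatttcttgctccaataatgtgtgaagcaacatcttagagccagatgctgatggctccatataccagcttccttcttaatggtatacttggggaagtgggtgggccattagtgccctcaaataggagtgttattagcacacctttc

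A window was listed for 70 of the 102 rising calls and 81 of the 109 falling calls, with the first listed taken where a gene had several. GAGGAAG occurred in 20.99% of the falling windows and 10% of the rising windows, against 11.29% of 9229 windows of tested genes. AGATAA occurred in 13.58% and 12.86% against 5.829%, TGTGGT in 18.52% and 15.71% against 10.97%, and TTGCNNAA in 12.35% and 11.43% against 7.476%. CTTTGA occurred in 16.05% of the falling and 10% of the rising windows against 10.81%, and TTCNNNGAA in 7.407% and 5.714% against 6.003%. TGGGAA occurred in 24.69% of the falling and 15.71% of the rising windows, against 20.5%. These shares are descriptions, without a test, of letters near starts.

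Of 25 tested genes of the CD3 chains, the pre-T cell receptor and its signaling, 19 were members, 15 of them higher in both years, and 9 were called higher and 0 lower. The median difference was 1.16 in the earlier and 1.33 in the later year, against 0.00 and -0.03 over all tested genes. Cd3g stood at 30.4 and 95.98 CPM in DN1 and 2020 and 1224 CPM in DN2b (log2FC = 4.68 ± 0.60 SE, edgeR adjusted p = 0.00704). Cd247, which encodes the CD3 zeta chain, stood at 0.705 and 0.548 and 61.2 and 51.9 CPM (log2FC = 6.48 ± 0.70 SE, edgeR adjusted p = 0.0034). The lowest DN2b library exceeded the highest DN1 library in both, by a wider margin in Cd247 than in Cd3g, whose later DN1 library already held reads in number.

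Adaptors and a kinase downstream of the receptor were among the calls. Sla2, an adaptor that dampens receptor signaling, stood at 7.94 and 11.7 CPM in DN1 and 109.5 and 114 CPM in DN2b (log2FC = 3.51 ± 0.47 SE, edgeR adjusted p = 0.00962). Skap1, an adaptor linking the receptor to integrins, stood at 0.371 and 0.399 and 9.74 and 18.1 CPM (log2FC = 5.16 ± 0.65 SE, edgeR adjusted p = 0.00688). Trat1, a transmembrane adaptor of the receptor complex, stood at 5.08 and 9.42 and 89.04 and 108 CPM (log2FC = 3.76 ± 0.51 SE, edgeR adjusted p = 0.00962). Both DN2b libraries lay above both DN1 libraries in these 3 genes, and Sla2 had covered 92.84% of its log2 span at DN2a. Txk, a TEC-family kinase, stood at 3.08 and 1.25 and 42.6 and 97.4 CPM (log2FC = 5.00 ± 0.82 SE, edgeR adjusted p = 0.0205). Grap2, an adaptor that binds SLP-76, stood at 6.2 and 8.43 and 33.9 and 29.5 CPM (log2FC = 2.12 ± 0.38 SE, edgeR adjusted p = 0.0288). Neither of these 2 genes overlapped between the stages.

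Other signaling genes of the list did not pass the test. Lck, the kinase that phosphorylates the CD3 chains, stood at 33.2 and 76.2 CPM in DN1 and 606 and 294 CPM in DN2b (log2FC = 3.04 ± 0.67 SE, edgeR adjusted p = 0.0621). Plcg1, phospholipase C gamma 1, stood at 54.3 and 65.1 and 87.9 and 102 CPM (log2FC = 0.67 ± 0.31 SE, edgeR adjusted p = 0.389), and Vav1, a guanine nucleotide exchange factor, at 146 and 134 and 129 and 114 CPM (log2FC = -0.21 ± 0.31 SE, edgeR adjusted p = 0.818). The Lck groups did not overlap, whereas the Vav1 values were close in all 4 libraries. Ptcra, the pre-T cell receptor alpha chain, stood at 5.38 and 10.6 and 40.5 and 6.85 CPM and went in opposite directions in the 2 years, so it was not a member (named after its values were seen). Without the earlier DN1 library, 2 of the 9 calls held, Cd3g and Cd247.

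Of 22 tested transcription factors of the T lineage 18 were members, 12 of them higher in both years, and 2 were called higher and 0 lower. DESeq2 called 5 members higher and 3 lower, and 7 members were higher and 3 lower at an unadjusted p under 0.05. With the label year as a replicate block, edgeR called 1 member higher. Ets1, a factor of lymphoid genes, stood at 15.2 and 14.2 CPM in DN1, 16.9 and 17.2 CPM in DN2a and 68.3 and 89.2 CPM in DN2b (log2FC = 2.42 ± 0.45 SE, edgeR adjusted p = 0.0338). Gata3, required for T commitment, stood at 11.8 and 13.8, 31.98 and 30.3 and 30.8 and 55.9 CPM in the same order (log2FC = 1.76 ± 0.36 SE, edgeR adjusted p = 0.0426). Ets1 had covered 8.6% of its log2 span at DN2a and Gata3 72.43%. Tcf7, which encodes TCF1, stood at 238 and 250.3 CPM in DN1 and 550.4 and 502 CPM in DN2b and was not called (log2FC = 1.11 ± 0.55 SE, edgeR adjusted p = 0.425). Tcf12, which encodes the E protein HEB, and Myb were not called, with log2FC of 0.93 and 0.38. Without the earlier DN1 library the edgeR adjusted p was 0.193 for Ets1 and 0.264 for Gata3, and with each of 10 libraries left out in turn Ets1 was called in 3 cases and Gata3 in 2.

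The genes of V(D)J recombination, which cuts and rejoins receptor gene segments, were led by Dntt. This gene encodes the terminal transferase that adds bases at the joints, and stood at 3.93 and 5.33 CPM in DN1, 7.45 and 9.13 CPM in DN2a and 59.9 and 79.1 CPM in DN2b (log2FC = 3.91 ± 0.70 SE, edgeR adjusted p = 0.0281). Lig4, the ligase of end joining, stood at 4.82 and 5.83 and 17.02 and 28.99 CPM in DN1 and DN2b (log2FC = 2.11 ± 0.43 SE, edgeR adjusted p = 0.0436). Both genes were higher in both DN2b libraries than in any DN1 or DN2a library, and Dntt had covered only 19.8% of its span at DN2a. Of 13 tested genes 8 were members, all 8 higher, and 2 were called. Xrcc6, which encodes KU70, Poll and Xrcc4 were not called, and Rag2, a recombinase subunit (named after its values were seen), stood at 2.08 and 2.94 and 13.7 and 3.42 CPM (log2FC = 1.77 ± 0.90 SE, edgeR adjusted p = 0.436). Neither call held without the earlier DN1 library, or without any other single DN library.

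Among costimulation, checkpoint and TNF-family genes, Ctla4 and Cd28, the receptors that share the ligands CD80 and CD86, were the 2 called of 22 tested. Ctla4 stood at 2.86 and 8.48 CPM in DN1, 70.7 and 59.2 CPM in DN2a and 236 and 231 CPM in DN2b (log2FC = 5.37 ± 0.57 SE, edgeR adjusted p = 0.0034). Cd28 stood at 1.19 and 2.99, 9.42 and 14.2 and 22.96 and 38.5 CPM (log2FC = 3.89 ± 0.63 SE, edgeR adjusted p = 0.0205). Both the inhibitory and the activating receptor rose, with DN2a in between. The same direction in both years was required of every member. Ctla4 was called with each library left out in turn, and Cd28 was not called without the earlier DN1 library (edgeR adjusted p = 0.131). Tnfrsf9, a costimulatory receptor of the TNF family, stood at 0.445 and 0.0499 and 27.03 and 161 CPM and was not called (log2FC = 8.45 ± 2.08 SE, edgeR adjusted p = 0.0906), nor were Tnfrsf18 and Cd160, at log2FC of 1.91 and 1.14.

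The Gimap genes encode small GTPases that sustain lymphocyte survival and lie in 1 cluster on chromosome 6. All 7 genes of the list were tested, all 7 were higher in DN2b in both years, and 3 were called. Gimap4 (chr6:48684549-48692060) stood at 0.297 and 1.35 CPM in DN1 and 18.3 and 141 CPM in DN2b (log2FC = 6.63 ± 1.19 SE, edgeR adjusted p = 0.0289). Gimap7 stood at 1.56 and 1.45 and 20.96 and 47.9 CPM (log2FC = 4.51 ± 0.58 SE, edgeR adjusted p = 0.0228), and Gimap8 at 0.594 and 0.449 and 7.48 and 35.8 CPM (log2FC = 5.35 ± 0.98 SE, edgeR adjusted p = 0.0304). The later DN2b library was the higher in all 3, and the median of the 7 genes was 2.03 in the earlier and 3.82 in the later year. Gimap5, Gimap6 and Gimap9 were higher in DN2b without overlap and were not called, with log2FC of 3.26, 2.71 and 1.93. None of the 3 calls held without the earlier DN1 library or without the later DN2b library.

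Genes shared with natural killer and innate lymphoid cells split in direction. Gzma, a granule protease of cytotoxic cells, stood at 331 and 203 CPM in DN1 and 4159 and 2537 CPM in DN2b (log2FC = 3.65 ± 0.76 SE, edgeR adjusted p = 0.0471), whereas Gzmb, another granule protease, stood at 1940 and 229.8 and 90.4 and 111 CPM and was not called (log2FC = -3.43 ± 0.87 SE, edgeR adjusted p = 0.0991). Nfil3, a factor needed for innate lymphoid cells, stood at 1.15 and 1.45 and 10.3 and 28.4 CPM (log2FC = 3.90 ± 0.53 SE, edgeR adjusted p = 0.00977). Il1rl1, the interleukin-33 receptor that mast cells also carry, stood at 58.7 and 15.2 CPM in DN1 and at 0 and 0.239 CPM in DN2b (edgeR adjusted p = 0.0283). Of 19 tested genes 2 were called higher and 1 lower, and 0 of the 3 calls held without the earlier DN1 library. Klrc1 and Ifng had no read in the 4 libraries, and Nkg7 and Cd7 were not called, at log2FC of 0.47 and 0.03.

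Notch and cytokine signaling genes outside the high-dose list held 0 calls by edgeR. With 1.01% of all tested genes called higher and 0.892% lower, lists of this length would hold few. Of 14 tested Notch receptors and targets 7 were members, with a median difference of 0.26 in the earlier and 0.24 in the later year. Notch1 stood at 67.1 and 80.4 CPM in DN1 and 104 and 92.5 CPM in DN2b (log2FC = 0.41 ± 0.36 SE, edgeR adjusted p = 0.677). Hes1, a repressor that Notch induces, stood at 42.2 and 53.05 and 45.1 and 66.6 CPM (log2FC = 0.23 ± 0.48 SE, edgeR adjusted p = 0.877), and Myc at 198 and 221 and 124 and 162 CPM (log2FC = -0.55 ± 0.48 SE, edgeR adjusted p = 0.675). Hes1 overlapped between the stages, and it stood at 0.056 to 0.305 CPM in the IgG control. Of 18 tested genes of the gamma-chain receptors and the STAT5 pathway 14 were members. Il7r, the interleukin-7 receptor (named after its values were seen), stood at 7.94 and 21.5 and 30.97 and 39.4 CPM (log2FC = 1.26 ± 0.90 SE, edgeR adjusted p = 0.601), Il2rg at 188 and 182 and 196 and 218 CPM (log2FC = 0.16 ± 0.27 SE, edgeR adjusted p = 0.839), and Jak1 and Mcl1 at log2FC of -0.23 and -0.16. Among the members, at an unadjusted p under 0.05, 0 Notch genes were higher and 1 lower, and 3 cytokine signaling genes were higher and 1 lower. DESeq2 called 1 Notch member lower and 0 cytokine signaling members. With the label year as a replicate block, edgeR called 0 Notch members and 1 cytokine signaling member, higher.

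**Figure D3:**
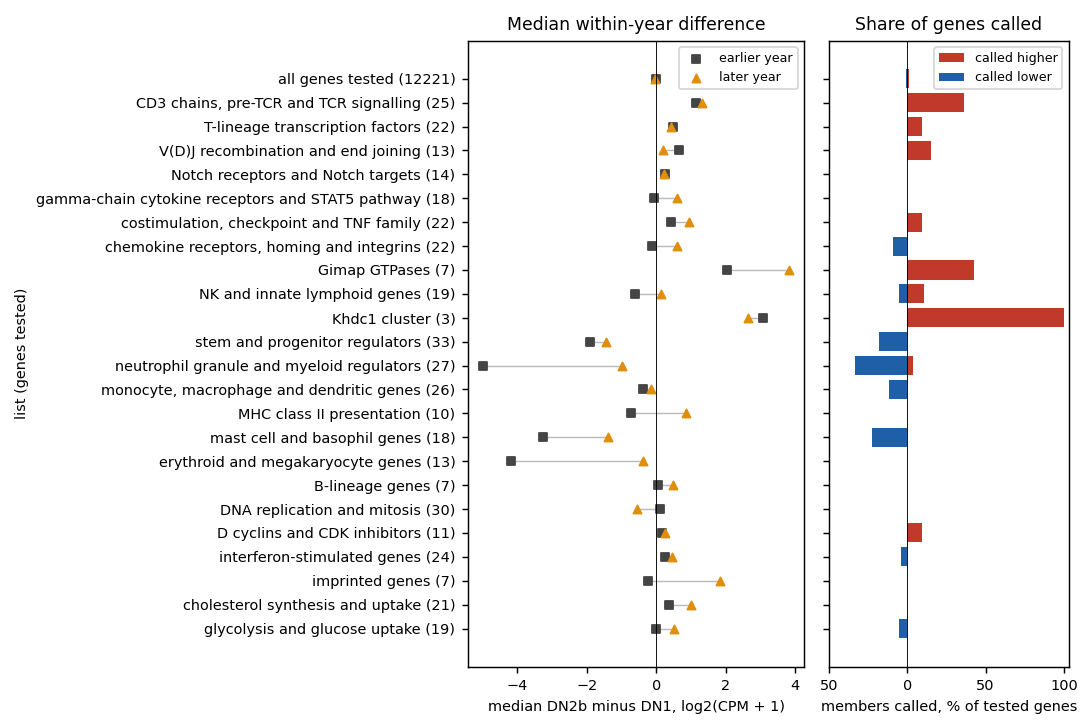
The left panel gives the median DN2b minus DN1 difference of each gene list on the log2(CPM + 1) scale, in the earlier (squares) and later (triangles) year, with the number of genes tested in brackets. The right panel gives the members called higher (right) and lower (left) as a percentage of the genes tested. The lists of CD3 chains, T-lineage factors, V(D)J recombination and Gimap genes lie to the right of 0 in both years, and the neutrophil, mast cell and erythroid lists lie farther to the left in the earlier year.

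Of 33 tested regulators of stem cells and early progenitors 30 were members, 29 of them lower in both years, and 6 were called lower and 0 higher. The median difference was -1.92 in the earlier and -1.45 in the later year. Spi1, which encodes PU.1, stood at 104 and 72.5 CPM in DN1, 24.5 and 29.7 CPM in DN2a and 15.1 and 12.3 CPM in DN2b (log2FC = -2.68 ± 0.28 SE, edgeR adjusted p = 0.0034). Bcl11a, a repressor of early lymphoid and stem cells, stood at 92.2 and 80.3 CPM in DN1 and 6.61 and 9.32 CPM in DN2b (log2FC = -3.44 ± 0.53 SE, edgeR adjusted p = 0.0157). Lmo2, an adaptor of stem cell factor complexes, stood at 140.3 and 59.1 and 1.6 and 7.17 CPM (log2FC = -4.52 ± 0.69 SE, edgeR adjusted p = 0.0156). In all 3 genes both DN1 libraries lay above both DN2b libraries, and Lmo2 had covered 90.13% of its span at DN2a.

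Hhex, Flt3 and Meis1 were the other calls of this list. Hhex, a homeobox factor of progenitors, stood at 122 and 110.1 CPM in DN1 and 29.1 and 37.8 CPM in DN2b (log2FC = -1.79 ± 0.34 SE, edgeR adjusted p = 0.034). Flt3, a cytokine receptor of lymphoid and myeloid progenitors, stood at 20.2 and 90.1 and 1.27 and 4.78 CPM (log2FC = -4.19 ± 0.82 SE, edgeR adjusted p = 0.0378). Meis1, a homeobox factor of stem cells, stood at 43.8 and 23.8 and 3.4 and 8.04 CPM (log2FC = -2.56 ± 0.51 SE, edgeR adjusted p = 0.04). In Flt3 the later DN1 library was the higher, in contrast to Meis1 and Lmo2. Cd34 and Angpt1 fell short of the threshold at 363 and 991 against 120.4 and 149 CPM and at 220.3 and 265 against 56.3 and 51.3 CPM (edgeR adjusted p = 0.0841 and 0.264), and Nfe2 had a log2FC of -0.56. Without the earlier DN1 library, 2 of the 6 calls held, Spi1 and Flt3, and without the earlier DN2b library also 2.

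Neutrophil granule and myeloid genes were among the 12 largest falls. S100a8, a subunit of calprotectin, stood at 517 and 13.6 CPM in DN1 and had 0 and 1 reads in DN2b (edgeR adjusted p = 0.022). S100a9, the other subunit, stood at 877 and 16.4 CPM in DN1 and had 3 and 0 reads in DN2b (edgeR adjusted p = 0.0299). Their DN2b values were at or under the floor of 3 counts. Ms4a3, a membrane protein of granulocyte progenitors, stood at 50.8 and 4.94 CPM in DN1 with no read in DN2b, at least 127-fold lower against the floor (edgeR adjusted p = 0.0266). Mpo, myeloperoxidase, stood at 343 and 24.1 CPM in DN1 and 0.0668 and 0.398 CPM in DN2b (log2FC = -9.66 ± 1.67 SE, edgeR adjusted p = 0.0258). The earlier DN1 library was the higher of the DN1 libraries in all 4 genes, and the later DN1 library was still above both DN2b libraries.

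Of 27 tested genes of this list 22 were members, 21 of them lower in both years, 9 were called lower and 1 higher. Csf2rb, the shared receptor chain for GM-CSF, interleukin-3 and interleukin-5, stood at 143 and 19.6 CPM in DN1 and 2 and 1.51 CPM in DN2b (log2FC = -5.52 ± 0.88 SE, edgeR adjusted p = 0.0181). Lyz2, lysozyme, stood at 225 and 22.7 and 4.54 and 2.39 CPM (log2FC = -5.15, edgeR adjusted p = 0.0367), and Prtn3, proteinase 3, at 112 and 15.8 and 0.601 and 1.67 CPM (log2FC = -5.83 ± 1.15 SE, edgeR adjusted p = 0.0386). Cebpd, a myeloid C/EBP factor, stood at 6.42 and 5.78 and 0.2 and 0.956 CPM (log2FC = -3.43 ± 0.67 SE, edgeR adjusted p = 0.0378), and its DN1 libraries were close to each other. The remaining call was Csf3r, the receptor for G-CSF, at 8.16 and 0.997 CPM in DN1 and 0 and 0.0796 CPM in DN2b (edgeR adjusted p = 0.044). Ly6c1, an antigen of myeloid and lymphoid cells, went the other way, at 0.297 and 0.15 and 2.8 and 6.29 CPM (log2FC = 4.28 ± 0.86 SE, edgeR adjusted p = 0.0426). Its call held in 2 of 10 cases with a library left out, both IgG control libraries.

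The most variable granule genes did not pass the test. Ngp, a granule protein, stood at 428 and 6.28 CPM in DN1 with no read in DN2b (edgeR adjusted p = 0.0626). Ltf, lactoferrin, stood at 149 and 0.997 and 0.667 and 0.717 CPM (edgeR adjusted p = 0.157), and Lcn2, lipocalin 2, at 128 and 1.55 and 0 and 0.159 CPM (edgeR adjusted p = 0.0917). The DN1 libraries differed more in these genes than in the called ones. The summed level of the list was 3336 and 155 CPM in DN1, 24.4 and 32.8 CPM in DN2b and 34821 to 96899 CPM in the IgG control, with a median difference of -4.98 in the earlier and -0.98 in the later year. In DN2b Elane, Fcnb, Camp, Ngp, Ms4a3 and Mmp8 had no read. The part of granulocyte RNA in the falls was not tested. Without the earlier DN1 library, 4 of the 9 calls held, and without either DN2b library none did, whereas without the later DN1 library 17 genes were called.

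Mast cell and basophil genes held 4 calls, each lower. Fcer1a, the alpha chain of the high-affinity IgE receptor, stood at 268 and 62.1 CPM in DN1, 2.58 and 0.223 CPM in DN2a and 0.2 and 0.0796 CPM in DN2b (edgeR adjusted p = 0.0203). Ms4a2, its beta chain, stood at 123 and 41.4, 1.11 and 0.446 and 0 and 0.239 CPM (edgeR adjusted p = 0.0156). Mcpt4, a mast cell protease, stood at 801 and 133 CPM in DN1 and 0.267 and 1.11 CPM in DN2b (log2FC = -9.43 ± 1.98 SE, edgeR adjusted p = 0.049), and Alox5, the lipoxygenase of leukotriene synthesis, at 61.1 and 4.64 and 0 and 0.0796 CPM (edgeR adjusted p = 0.0304). These were the 4 calls among 18 tested genes, of which 14 were members, all 14 lower. The protease gene Mcpt1 stood at 6269 and 1732 CPM in DN1 and 4.21 and 10.6 CPM in DN2b and was not called (log2FC = -9.08 ± 2.01 SE, edgeR adjusted p = 0.0616). Mcpt2 stood at 1051 and 596 and 1.27 and 2.07 CPM and was not called either (log2FC = -8.95 ± 2.04 SE, edgeR adjusted p = 0.0676). In both genes the groups did not overlap. Their levels are uncertain, as reads not aligned uniquely, which related proteases can give, were left out of the counts.

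The summed level of the mast cell list was 9693 and 2933 CPM in DN1 and 266 and 480 CPM in DN2b, so both DN1 libraries stood above both DN2b libraries. In DN2b Cma1, Prss34 and Il6 had no read, and Cpa3, which early progenitors also express, held 3847 and 5694 reads. In the IgG control the list summed to 137 to 341 CPM. The DN1 gate took KIT++ cells, and KIT is a marker that mast cells also carry. The part of mast cell RNA in the falls was not tested. The 4 calls were lost without the earlier DN1 library or without either DN2b library, and 7 genes were called without the later DN1 library.

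Among macrophage and dendritic cell genes 3 were called lower and 0 higher by edgeR. Of the members, DESeq2 called 5 lower and 3 higher, and 9 were lower and 4 higher at an unadjusted p under 0.05. Csf1r, the receptor for M-CSF, stood at 18.3 and 23.8 CPM in DN1 and at 0 and 0.0796 CPM in DN2b (edgeR adjusted p = 0.00316). Mpeg1, perforin 2, stood at 10.2 and 4.89 and 0.134 and 0.0796 CPM (edgeR adjusted p = 0.00621), and Tyrobp, the adaptor DAP12, at 246 and 261 and 12.3 and 38.95 CPM (log2FC = -3.31 ± 0.67 SE, edgeR adjusted p = 0.0426). The Csf1r and Tyrobp values of both DN1 libraries were close to each other, in contrast to the granule genes. Of 26 tested genes 18 were members, 13 of them lower in both years. Csf1r was called under every one of 18 other settings, Mpeg1 under 15 and Tyrobp under 6, and without the earlier DN1 library Tyrobp was not called (edgeR adjusted p = 0.143). Without either DN2b library 1 of the 3 calls held. The summed level of the list was 622 and 712 CPM in DN1 and 252 and 369 CPM in DN2b, Msr1 had no read in the 4 libraries, and Emr1, which encodes F4/80, was higher in DN2b without a call, at 3.08 and 0.199 and 7.08 and 39.9 CPM (log2FC = 3.79 ± 1.27 SE, edgeR adjusted p = 0.201).

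Of the homing receptors and integrins, Itgam and Itgax were called lower and 0 of 22 tested were called higher by edgeR. Among the 16 members, DESeq2 called 3 higher and edgeR with the label year as a replicate block 1. At an unadjusted p under 0.05, 6 members were higher. Itgam (CD11b) stood at 47.7 and 24.7 CPM in DN1, 1.25 and 4.16 CPM in DN2a and 0.667 and 1.91 CPM in DN2b (log2FC = -4.83 ± 0.73 SE, edgeR adjusted p = 0.0153). Itgax (CD11c) stood at 35.6 and 116, 25.7 and 38.5 and 4.41 and 6.21 CPM (log2FC = -3.84 ± 0.74 SE, edgeR adjusted p = 0.0367). Itgam was near its DN2b level in DN2a, with 82.72% of its span covered, whereas Itgax had covered 33.7%. Itgb7, Selplg and Ccr2 were not called, at log2FC of -0.72, 0.86 and -1.37. Neither call held without either DN2b library, and without the earlier DN1 library Itgax held (edgeR adjusted p = 0.0446).

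**Figure D4:**
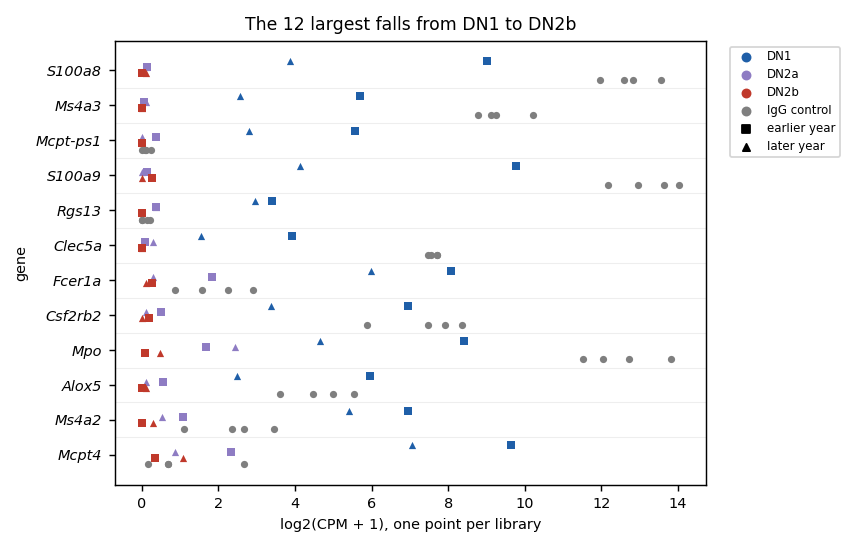
Expression of the 12 members with the largest falls, 1 point per library on a log2(CPM + 1) axis, colored by group and shaped by label year. Both DN1 libraries lie to the right of both DN2b libraries in every row, as the rule that chose these genes required. The earlier DN1 library (square) is the higher of the DN1 libraries.

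Other large falls were those of Clec5a, Csf2rb2, Rgs13 and Mcpt-ps1. Clec5a, a myeloid lectin receptor, stood at 14.1 and 1.95 CPM in DN1 with no read in DN2b, at least 36.5-fold lower against the floor (edgeR adjusted p = 0.0258). Csf2rb2, the interleukin-3 specific sister of Csf2rb, stood at 122 and 9.42 CPM in DN1 and at 0.134 and 0 CPM in DN2b (edgeR adjusted p = 0.0299), and, as the copies are alike, the level of each is uncertain. Rgs13, a regulator of G-protein signaling in mast and B cells, stood at 9.57 and 6.78 CPM in DN1 with no read in DN2b, at least 37.2-fold lower (edgeR adjusted p = 0.0459). Mcpt-ps1, a transcribed pseudogene among the mast cell proteases, went from 46.1 and 5.98 CPM to no read. Clec5a was still called without the earlier DN1 library (edgeR adjusted p = 0.018), whereas Csf2rb2, Rgs13 and Mcpt-ps1 were not (edgeR adjusted p = 0.0754, 0.154 and 0.198).

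Among the called members with the highest levels, several were outside the lists. Xbp1, a factor of the unfolded protein response, stood at 72.8 and 125 CPM in DN1 and 603 and 560 CPM in DN2b (log2FC = 2.56 ± 0.34 SE, edgeR adjusted p = 0.00899). Akr1c13, an aldo-keto reductase, stood at 65.2 and 88.0 and 571 and 376 CPM (log2FC = 2.63 ± 0.42 SE, edgeR adjusted p = 0.0181), and Marcks, an actin regulator at the membrane, at 40.8 and 76.4 and 311 and 318 CPM (log2FC = 2.42 ± 0.34 SE, edgeR adjusted p = 0.0116). Slc29a1, a nucleoside transporter, and Mpp1, a membrane scaffold, rose with log2FC of 1.56 and 1.85. Plek (pleckstrin), Pla2g4a, the cytosolic phospholipase A2, and Abcc1, a drug and leukotriene exporter, fell. Plek stood at 144 and 187 and 11.9 and 19.8 CPM (log2FC = -3.38 ± 0.70 SE, edgeR adjusted p = 0.0472), Pla2g4a at 125 and 204 and 53.7 and 35.8 CPM (log2FC = -1.88 ± 0.31 SE, edgeR adjusted p = 0.0216) and Abcc1 at 161 and 98.8 and 35.4 and 38.3 CPM (log2FC = -1.82 ± 0.32 SE, edgeR adjusted p = 0.0273). Only Pla2g4a of these 8 was still called without the earlier DN1 library (edgeR adjusted p = 0.0284).

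Erythroid, megakaryocyte and B cell genes held 0 calls by edgeR. Over all tested genes 1.01% were called higher and 0.892% lower, so few calls could fall on such short lists. Of 13 tested erythroid and megakaryocyte genes 7 were members, all 7 lower, with a median difference of -4.19 in the earlier and -0.38 in the later year. Klf1, a factor of red cell genes, stood at 51.6 and 0.598 CPM in DN1 and 0.334 and 0.398 CPM in DN2b, so that the difference lay in 1 library (log2FC = -6.14 ± 1.78 SE, edgeR adjusted p = 0.144). Car2 and Itga2b were lower, at 181 and 119 against 4 and 10.99 CPM and 332 and 121 against 17.2 and 25.01 CPM (edgeR adjusted p = 0.104 and 0.164). The list summed to 1092 and 655 CPM in DN1 and 558 and 358 CPM in DN2b, and Car1 and Gp9 had no read in DN2b. Most of the DN2b sum was Tfrc, the transferrin receptor that dividing cells of many types carry, and without it the list summed to 834 and 257 CPM in DN1 and 25.7 and 58.6 CPM in DN2b. At an unadjusted p under 0.05, the 7 members were lower, and DESeq2 called 6 of them. The B cell list of 7 tested genes summed to 139 and 105 CPM in DN1 and 80.6 and 60.1 CPM in DN2b, mostly Btk at 128 and 90.8 and 66.8 and 41.6 CPM, and Pax5 and Ms4a1 had no read in the 4 libraries. Of the B cell members, 1 was higher and 1 lower at an unadjusted p under 0.05, and DESeq2 called 1 lower.

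Calls on the cell cycle and metabolic lists were few, as were those over all tested genes (1.01% higher and 0.892% lower). Of 30 tested genes of DNA replication and mitosis, 0 were called by edgeR, with medians of 0.11 in the earlier and -0.55 in the later year. The 11 members were all lower, and 0 of them were called by DESeq2 or passed an unadjusted p under 0.05. Top2a, Cdk1 and Cdt1 had log2FC of -0.76, -0.55 and -0.06. Cdkn1a, which encodes the cell cycle inhibitor p21, was the 1 call among 11 D cyclins and CDK inhibitors, at 33.8 and 12.9 CPM in DN1, 86.4 and 84.4 CPM in DN2a and 115 and 87.1 CPM in DN2b (log2FC = 2.11 ± 0.43 SE, edgeR adjusted p = 0.0456). It had nearly reached its DN2b level in DN2a, and its call held without the earlier DN1 library (edgeR adjusted p = 0.0284) and was lost when any other single library was left out. Ccnd1 (cyclin D1) was lower without a call, at 38.1 and 99.7 and 10.4 and 21.5 CPM (log2FC = -2.11 ± 0.68 SE, edgeR adjusted p = 0.188), and Cdkn1b and Ccnd3 had log2FC of 0.79 and 0.15.

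The cholesterol genes held 0 calls by edgeR, against 1.01% of all tested genes called higher and 0.892% lower. Among their members, 1 was called higher by DESeq2 and 6 were higher at an unadjusted p under 0.05. Of 21 tested, 18 were members and 17 of these were higher in both years, with medians of 0.36 in the earlier and 1.01 in the later year. Idi1 stood at 168 and 303 CPM in DN1 and 572 and 612 CPM in DN2b (log2FC = 1.33 ± 0.36 SE, edgeR adjusted p = 0.122), and Fdps and Hmgcs1, also of the mevalonate route, had log2FC of 1.09 and 0.79. Of 19 tested glycolysis genes, Hk3, a hexokinase of myeloid cells, was the 1 call, at 18.4 and 1.79 CPM in DN1 and 0.267 and 0.239 CPM in DN2b (log2FC = -5.29 ± 1.10 SE, edgeR adjusted p = 0.0471). Gapdh, Pkm and Ldha had log2FC of 0.67, 0.47 and 0.29. The call of Hk3 held in 1 of 10 cases with a library left out, that without the later DN1 library.

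Interferon-stimulated genes held 1 call among 24 tested, Oas2, an enzyme of the antiviral response, at 1.45 and 1.25 CPM in DN1 and 0.2 and 0.0796 CPM in DN2b (edgeR adjusted p = 0.0386). The list median was 0.26 in the earlier and 0.46 in the later year, and 14 of its 18 members were higher, so the call ran against the list. It held in 3 of 10 cases with a library left out and was lost without the earlier DN1 library (edgeR adjusted p = 0.154). Bst2 was higher and Ifih1 lower without a call, at log2FC of 0.97 and -0.45, and Ddx58 stood at 0.41. The 10 tested genes of MHC class II presentation and the 7 tested imprinted genes held 0 calls by edgeR. Only 3 and 1 of them were members, and 0 of these were called by DESeq2 or passed an unadjusted p under 0.05. H2-Oa, H2-Ob and H2-DMb2 had log2FC of 1.13, -0.90 and 1.02, and Mest, the 1 imprinted member, 1.25.

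With the label year as a replicate block, in a fit of the DN libraries alone, 15 of the 65 called named genes were no longer called. The rising ones were Cd3g, Cdkn1a, Gata3, Gimap8, Lig4, Ly6c1 and Slc29a1, with an edgeR adjusted p of 0.0503 for Cd3g to 0.108 for Slc29a1. The falling ones were Clec5a, Csf2rb, Hk3, Itgam, Lmo2, Mpo, Oas2 and Pla2g4a, with an edgeR adjusted p of 0.0624 for Itgam to 0.24 for Oas2. Another 8 named genes were called under the block. Gimap6, Gimap9 and Tnfrsf9 were higher (edgeR adjusted p = 0.0338, 0.0201 and 0.0382), and Angpt1, Car2, Mcpt1, Mcpt2 and Ngp were lower (edgeR adjusted p = 0.0268, 0.0298, 0.0288, 0.0147 and 0.00925).

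**Figure D5:**
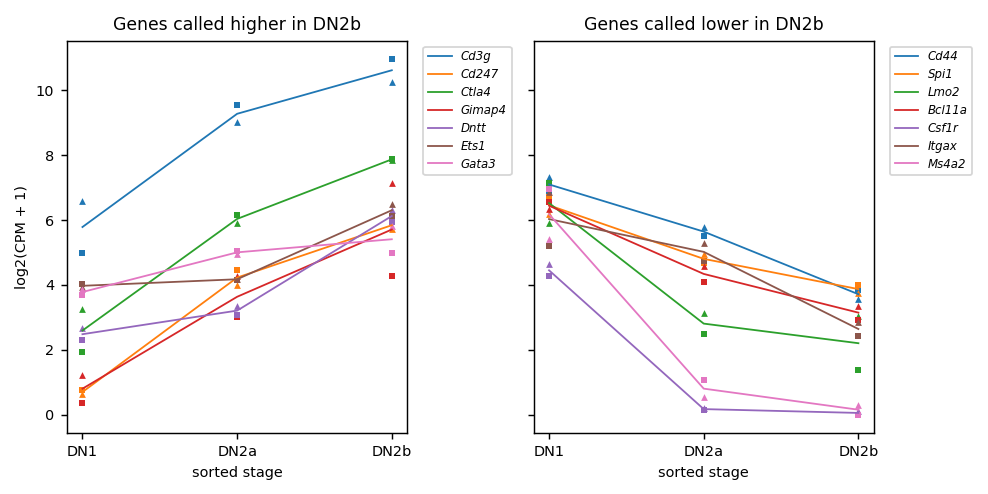
Expression in DN1, DN2a and DN2b of 7 members called higher (left) and 7 called lower (right) on a log2(CPM + 1) axis, with squares for the earlier and triangles for the later year and lines through the stage means. Dntt and Ets1 rise mainly after DN2a, whereas Csf1r and Ms4a2 are near their DN2b level in DN2a.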

How the data were processed

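RNA-seq of 10 libraries was used: DN1, DN2a and DN2b with 2 libraries each and the IgG control with 4. For each library the authors mapped 36 bases of 1 read end to mm10 (TopHat, given as 2.12 in the submitters' processing notes) and deposited the raw read count of every gene symbol from htseq-count 0.6.1p1, run in its intersection-strict mode. The annotation and strand setting are not given in the sources used here, so overlapping genes are uncertain. The 5 summary lines per library were dropped. They held 4.76% to 10% of counted reads without a feature and 17.2% to 30.1% not aligned uniquely in the DN libraries, and 27 symbols had become dates.

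A gene entered the test when 2 or more libraries reached 1 CPM, and 1 model of 4 groups was fitted with edgeR 4.0.16 (TMM, quasi-likelihood test, prior count 0.125) in R 4.3.3. P-values were adjusted over all 12221 genes by Benjamini-Hochberg, with a threshold of 0.05. The SE of a log2FC is its size over the square root of F. CPM used TMM-scaled library sizes. The floor was 3 counts per library, averaged over a stage for a bound on a fold. Members were set by DN2b minus DN1 of log2(CPM + 1) within each label year. Counts of calls on a list under DESeq2, the replicate block, a left-out library or an unadjusted p cover its members only.

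The 130 genes named by rule were the 12 largest called rises and falls of at least 5 CPM in the higher stage without overlap, up to 4 called genes per direction and 3 uncalled of the highest CPM in each of 23 lists, the sort markers, and the 8 highest called members per direction. The members and lists were chosen with earlier results of these data known. Other genes are said to be named after their values were seen, or complete a list's calls. Alternatives were DESeq2 1.42.0, other scalings and filters, other sets of libraries, a replicate block, a 2-fold threshold and each library left out. The code was tested on simulated counts. Gene positions are GENCODE vM21 and promoter windows RefSeq.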

Additional observations from a re-analysis of the deposited data

How the results depend on the processing

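Counts of called members, higher and then lower, were 102 and 109. Those of the T cell and lymphoid lists, with the Khdc1 list among them, called higher and of the progenitor and other-lineage lists called lower were 23 and 22. In the same order DESeq2 gave 307, 465, 38 and 59, edgeR on the DN1 and DN2b libraries alone gave 42, 22, 10 and 8, and a test beyond a 2-fold change gave 43, 46, 13 and 13. The DN libraries alone without a replicate block gave 99, 61, 22 and 14, and with the label year as a replicate block 123, 91, 24 and 21. Deviations of same-year libraries correlated at 0.19 between DN1 and DN2b, 0.0629 between DN1 and DN2a and 0.451 between DN2a and DN2b. The study's methods take DN1 and DN2 cells from each LSK replicate, and the titles give DN2a and DN2b the same day in each year and DN1 an earlier one, but do not say which libraries share an isolate. Testing every gene with a non-zero count gave 34 lower calls on the other-lineage lists. With single libraries left out, the counts ranged from 17 to 121, 14 to 230, 3 to 27 and 3 to 37, with the lowest without the earlier DN1 library for the rising counts and without the earlier DN2b library for the falling counts. The causes were not tested. As their groups did not overlap, the called named genes could hardly change sign, and none did. Of the uncalled ones 8 did, in 13 cases without a call, among them Ccr2, at a log2FC of 1.08 without the later DN1 library, and Cd7, at -0.41 without the earlier one. The others were Ccnd3, Cdt1, H2-Ob, Hes1, Il2rg and Mest. Over 19 alternatives the 65 called named genes kept their call in 868 of 1235 cases, and the 65 uncalled ones stayed uncalled in 1175 of 1235. The genes 5830411N06Rik, Cd163l1, C1qtnf1, Cd247, Ctla4, Cd44, Csf1r and Spi1 were called under 18 of 18 other settings. With 2 libraries per stage, smaller changes may have gone uncalled, and a gene at the floor could have been expressed below 0.111 to 0.239 CPM.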

Other observations

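Several gene families held called members outside the lists, although some of their other members were on a list, and the families were chosen after their values were seen. The guanylate-binding proteins are interferon-inducible GTPases of cell-autonomous defense. Of 8 tested genes, 4 were called higher in DN2b and 0 lower. Gbp6 stood at 0.482 and 0.499 CPM in DN1 and 30.8 and 59.7 CPM in DN2b (log2FC = 6.51 ± 0.69 SE, edgeR adjusted p = 0.0034), and Gbp8 at 0.297 and 0.748 and 15.3 and 24.2 CPM (log2FC = 5.25 ± 0.68 SE, edgeR adjusted p = 0.00747). Gbp9 and Gbp4 rose as well, with log2FC of 4.63 and 4.89. Gbp2, Gbp3, Gbp5 and Gbp7 were not called, at log2FC of 1.08, 1.65, 3.31 and 0.64. The interferon-stimulated list, which also holds Gbp2, had 0 genes called higher by edgeR. Of its members, 1 was called higher by DESeq2 and 3 were higher at an unadjusted p under 0.05. As reads not aligned uniquely were left out of the gene counts, the levels of these related genes are uncertain.

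Of 10 tested Src-family and related kinases, 4 were called lower and 0 higher. Lyn, a Src-family kinase, stood at 129 and 91.9 CPM in DN1 and 25.8 and 24.8 CPM in DN2b (log2FC = -2.13 ± 0.25 SE, edgeR adjusted p = 0.00531). Fes and Fgr, also myeloid tyrosine kinases, fell, with log2FC of -1.74 and -1.64. Of the kinases that T cells use, Fyn stood at 68.2 and 66.4 CPM in DN1 and 51.9 and 67.6 CPM in DN2b (log2FC = -0.17 ± 0.27 SE, edgeR adjusted p = 0.83), and Lck, given above, was higher without a call. Syk, a kinase of the IgE receptor, Src, Yes1 and Blk were not called either, at log2FC of -0.38, -1.81, 1.87 and 6.05. Ncf1, a subunit of the phagocyte oxidase, stood at 98.3 and 96.4 and 14.1 and 23.2 CPM (log2FC = -2.39 ± 0.35 SE, edgeR adjusted p = 0.0138), and Ncf4, Cyba, Cybb and Rac2 of the same complex were not called.

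Of 3 tested cell adhesion genes better known from epithelia and other tissues, Epcam and Cdh1 were called higher and Cdh2, which encodes N-cadherin, was not (log2FC = 0.56 ± 1.96 SE, edgeR adjusted p = 0.935). Epcam, an epithelial adhesion molecule, stood at 0.742 and 0.897 CPM in DN1 and 31.6 and 42.8 CPM in DN2b (log2FC = 5.50 ± 0.77 SE, edgeR adjusted p = 0.0111). Cdh1, which encodes E-cadherin, stood at 20.6 and 41.5 and 122 and 187 CPM (log2FC = 2.32 ± 0.47 SE, edgeR adjusted p = 0.045). Lif, a cytokine of the interleukin-6 family, stood at 0.408 and 0.299 and 14.9 and 14.2 CPM (log2FC = 5.33 ± 0.55 SE, edgeR adjusted p = 0.0034). Both DN2b libraries lay above both DN1 libraries in these 3 genes. Of 9 tested genes that hypoxia and stress induce in many cells, 5 were called higher, Xbp1, given above, Trib3 and Vegfa, Ndrg1 and Bhlhe40, the last 3 at log2FC of 3.12, 2.53 and 2.37, whereas Slc2a1, Atf4, Ddit3 and Hspa5 were not called. Of the genes of cell death, Bid fell and Diablo rose, at log2FC of -1.03 and 1.25, among 7 tested. Without the earlier DN1 library, Gbp6, Gbp9, Lyn, Ndrg1 and Lif were still called (edgeR adjusted p = 0.0358, 0.0234, 0.0266, 0.0342 and 0.0266). Gbp4, Gbp8, Fes, Fgr, Ncf1, Epcam, Cdh1, Vegfa, Bhlhe40, Trib3, Xbp1, Bid and Diablo were not, with an edgeR adjusted p of 0.0564 for Gbp8 to 0.313 for Gbp4.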
